A study of Rattus norvegicus with 13 samples.

Results

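Growth hormone and prolactin signalling was followed through 6 genes, Ghr, Prlr, Jak2, Stat5a, Stat5b and Socs2, in the liver of time-mated female Sprague Dawley rats. Every probe set other than the array's controls that names exactly 1 of these genes was taken, which gave 15 of 8740. They stand for 6 of 4736 genes that the array's annotation names alone. Of these 15, 12 were among the 5244 probe sets bright enough to be tested, and each of the 6 genes had at least 1 of them. The arrays fell into 4 groups by title. In EtOH-160 (n = 4) the diet held ethanol, 12 g per kg daily, and gave 160 kcal of energy for each kg of body weight raised to 0.75, also daily. In EtOH-220 (n = 3) the ethanol dose was the same and the energy 220 kcal. TEN-160 (n = 3), the undernourished controls, had no ethanol and 160 kcal, and TEN-220 (n = 3), the control group, had no ethanol and 220 kcal. All animals were pregnant, so no group shows the liver outside pregnancy. The labels give neither the day of gestation nor whether 1 array holds 1 rat or a pool, and p-values measure only the spread between these arrays. The members were named with earlier results of these data known.

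Growth hormone and prolactin are pituitary hormones of 1 family, and the placenta adds lactogens that bind the prolactin receptor. Their receptors, Ghr and Prlr, are single-pass cytokine receptors that carry no kinase of their own; binding activates the tyrosine kinase Jak2, which phosphorylates the transcription factors Stat5a and Stat5b. These factors drive hepatic targets such as Igf1 and Igfals, and they also raise Socs2, which acts back on the receptor to limit the signal. The liver is a main target organ of growth hormone, and the liver of female and pregnant rats is rich in Prlr.

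Over the whole array TEN-160 differed from the rest, and each comparison that uses it carries this. Its 3 arrays lay above all other 10 for 9.23% of the tested probe sets and below all of them for 6.12%. BioDn is a bacterial control added to each hybridisation, and its 5′ over 3′ signal ratio was 0.422 to 0.497 in TEN-160, against 0.132 to 0.21 in the remaining arrays. GAPDH, whose 3′ over 5′ ratio reads RNA integrity, had ratios of 1.5 to 1.73 in EtOH-160, 1.04 to 1.47 in EtOH-220, 1.03 to 1.24 in TEN-160 and 1.52 to 2.32 in TEN-220. The same ratio of beta-actin overlapped between all groups. It was 1.77 to 2.31 in EtOH-160, 1.93 to 2.18 in EtOH-220, 1.91 to 2.96 in TEN-160 and 1.97 to 3.00 in TEN-220. Array and diet cannot be told apart in TEN-160. Signals are MAS5 signals on a linear scale. TEN-220 replicate 1 was multiplied by 3.76 to bring it to the scale of the other arrays. Probes for sequences absent from the rat set the background at 46.6.

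Ghr, the growth hormone receptor, had its highest signals in the undernourished rats without ethanol, on each of its 3 probe sets, but the size of the difference was far from equal between them. RefSeq places the gene on chromosome 2 of the rat assembly GRCr8, from 54269066 to 54532595. Prlr, the prolactin receptor, lies on the same chromosome, from 60861391 to 61051883. Because both receptors had their highest group mean in TEN-160 on most probe sets, the RefSeq promoter windows of both are shown (GRCr8, 250 bases before to 50 after a transcript start, 5′ to 3′ on the gene's strand). They were read for TTCNNNGAA, the palindromic letters that STAT5 is known to prefer, and matches are in capitals. The table of windows held 5 of the 6 genes, in 6 windows. Ghr is on the minus strand, so its span begins at 54532595, and its only window lies inside that span. The 5′ end of the Ghr span was thus not read.
Ghr, chr2:54432026-54432325, minus strand: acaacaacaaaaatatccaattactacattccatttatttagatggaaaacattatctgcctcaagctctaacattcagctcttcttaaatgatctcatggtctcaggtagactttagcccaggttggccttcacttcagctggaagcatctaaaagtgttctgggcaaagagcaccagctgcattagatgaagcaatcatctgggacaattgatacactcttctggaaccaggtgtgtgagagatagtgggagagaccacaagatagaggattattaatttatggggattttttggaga
Prlr, first start, chr2:60861515-60861814, plus strand: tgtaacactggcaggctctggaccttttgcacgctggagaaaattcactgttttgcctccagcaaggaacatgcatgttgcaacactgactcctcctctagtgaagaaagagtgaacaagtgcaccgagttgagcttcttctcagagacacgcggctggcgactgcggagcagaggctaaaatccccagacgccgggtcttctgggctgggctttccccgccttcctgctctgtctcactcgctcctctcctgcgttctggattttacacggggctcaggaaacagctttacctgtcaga
Prlr, second start, chr2:60909409-60909708, plus strand: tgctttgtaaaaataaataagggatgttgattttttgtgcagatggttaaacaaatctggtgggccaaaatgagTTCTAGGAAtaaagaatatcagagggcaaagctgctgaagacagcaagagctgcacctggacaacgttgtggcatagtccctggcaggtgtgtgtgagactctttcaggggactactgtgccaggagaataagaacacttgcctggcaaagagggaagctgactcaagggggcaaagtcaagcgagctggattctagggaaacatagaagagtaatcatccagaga
The second Prlr window held 1 match, TTCTAGGAA, whose first base lies at position −176 from the start site, and the other 5 windows held 0. Of 33469 windows of the same length in the table, 8.87% hold these letters, which read the same on both strands. A match describes letters only.

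The Ghr probe set Z83757mRNA_g_at separated the groups most clearly. Its signals were 303, 159, 239 and 263 in EtOH-160, 649.9, 291 and 270.2 in EtOH-220, 1625, 1016 and 1031 in TEN-160 and 284, 242 and 327 in TEN-220. All TEN-160 arrays lay above all 10 others, the highest of which was EtOH-220 replicate 1 at 649.9, while the other 3 groups overlapped one another. The geometric means were 234, 371, 1194 and 282 in EtOH-160, EtOH-220, TEN-160 and TEN-220, with SDs of 0.40, 0.70, 0.39 and 0.22 on the log2 scale. In TEN-160 against TEN-220 the signal rose by 2.08 on the log2 scale, 4.24-fold (SE 0.326, limma adjusted p = 0.000961). In EtOH-160 against TEN-160 it fell by 2.35 (SE 0.305, limma adjusted p = 0.000323). With ethanol in both groups, EtOH-160 against EtOH-220, the difference was −0.66 (95% interval −1.32 to −0.01, limma adjusted p = 0.448), which did not pass.

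The probe set Z83757mRNA_at, designed from the same Ghr record, moved the same way by less. Its signals were 1214, 789, 919.9 and 1045 in EtOH-160, 1211, 1321 and 1167 in EtOH-220, 1827, 1613 and 1318 in TEN-160 and 1091, 1289 and 1316 in TEN-220. The TEN-160 arrays again held the highest values, but the lowest of them, 1318, was level with the highest of EtOH-220 and TEN-220. It fell by 0.68 in EtOH-160 against TEN-160 (SE 0.17, limma adjusted p = 0.0116), without overlap of the groups. The call ended without TEN-160 replicate 1 (limma adjusted p = 0.0564), with median-centred values (0.0831) and with the values as deposited (0.704). Its difference of TEN-160 from TEN-220 was 0.36 (SE 0.182, limma adjusted p = 0.192); the groups did not overlap, yet it was not called.

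The Ghr probe set S49003_s_at had signals of 6469.9, 4589, 3401 and 5428 in EtOH-160, 3989, 4984 and 4546 in EtOH-220, 8614, 11339 and 6235 in TEN-160 and 7052, 6691 and 3985 in TEN-220. The groups overlapped in each comparison; TEN-160 replicate 3 lay below 2 TEN-220 arrays and 1 EtOH-160 array. It fell by 0.81 in EtOH-160 against TEN-160 (SE 0.254, limma adjusted p = 0.0348), and the call ended without TEN-160 replicate 1 or 2 or EtOH-160 replicate 2 or 3, at limma adjusted p of 0.0851, 0.14, 0.0686 and 0.0919. It also ended with median-centred values (0.147), no filter (0.0734), no variance trend (0.0528), only the 2 groups compared in the fit (0.0506) or the values as deposited (0.572). Its difference of TEN-160 from TEN-220 was 0.57 (95% interval −0.02 to 1.15, limma adjusted p = 0.166). The 3 probe sets of Ghr thus ran in 1 direction in both comparisons that use TEN-160, with differences of 0.36 to 2.08 in TEN-160 against TEN-220 and of −2.35 to −0.68 in EtOH-160 against TEN-160. In liver RNA, fewer cells of a type and less RNA per cell cannot be told apart.

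**Figure D1:**
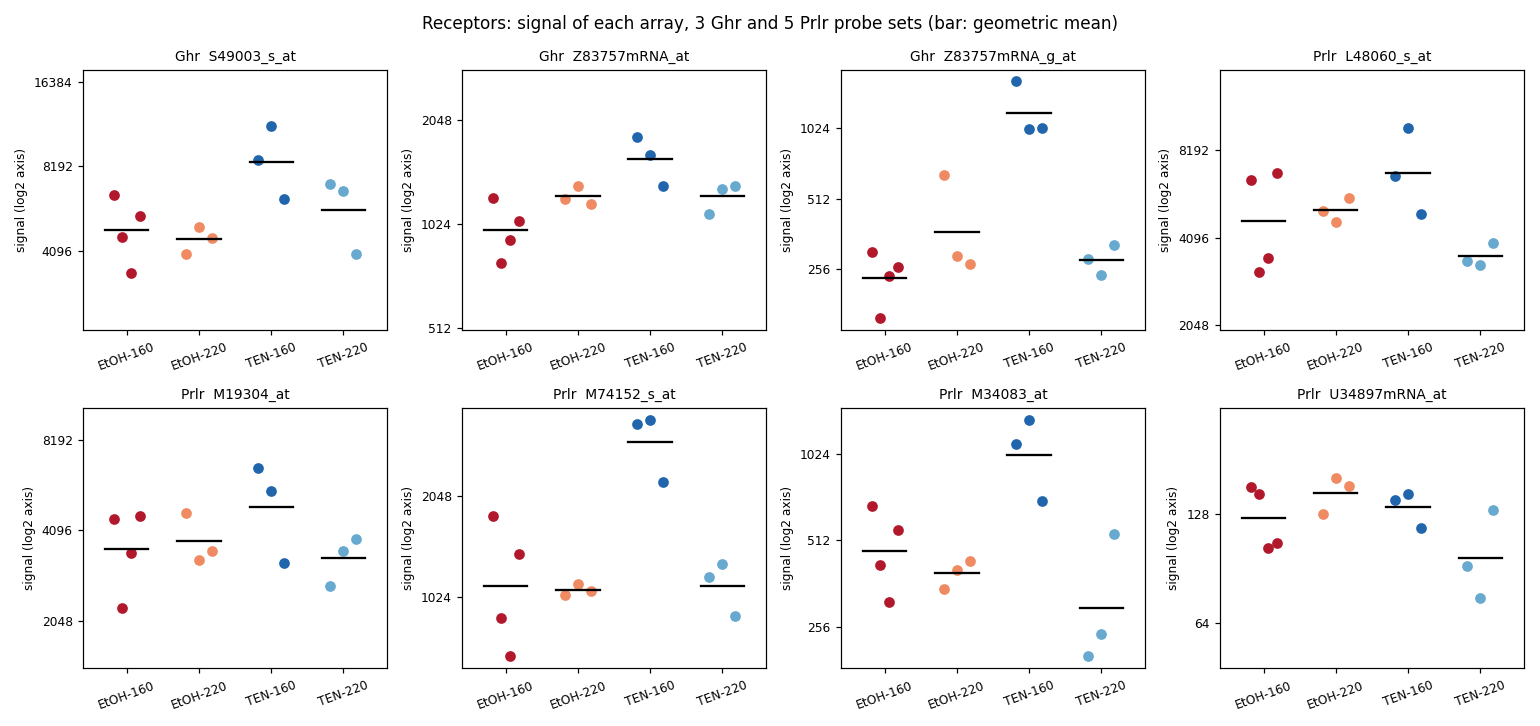
Signal of every array (log2 axis) for the 3 Ghr and 5 Prlr probe sets in EtOH-160 (n = 4), EtOH-220, TEN-160 and TEN-220 (n = 3 each); points are arrays and bars are geometric means. TEN-160 lies above all other 10 arrays for Ghr Z83757mRNA_g_at and for Prlr M74152_s_at and M34083_at, and overlaps another group for the other 5.

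Prlr had 5 tested probe sets, and 3 of them rose in TEN-160 against TEN-220. On M74152_s_at the signals were 1787, 887, 683 and 1375 in EtOH-160, 1041, 1119.9 and 1072 in EtOH-220, 3369, 3467 and 2257 in TEN-160 and 1178, 1284 and 902 in TEN-220. All TEN-160 arrays lay above all others, while the means of the other 3 groups lay within 1077 to 1109. It rose by 1.42 in TEN-160 against TEN-220, 2.68-fold (SE 0.296, limma adjusted p = 0.00518), and fell by 1.43 in EtOH-160 against TEN-160 (SE 0.277, limma adjusted p = 0.00285). The fall was not called with the values as deposited (limma adjusted p = 0.0993).

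On M34083_at the Prlr signals were 675, 419, 312 and 554 in EtOH-160, 346, 405 and 434 in EtOH-220, 1102, 1342 and 698 in TEN-160 and 202, 241 and 536 in TEN-220. TEN-160 again lay wholly above the rest, narrowly so, with 698 as its lowest value and 675, an EtOH-160 array, as the highest of the others. It rose by 1.77 in TEN-160 against TEN-220, 3.41-fold (SE 0.359, limma adjusted p = 0.00455). It fell by 1.10 in EtOH-160 against TEN-160 (SE 0.336, limma adjusted p = 0.0308). The second call ended without any 1 of TEN-160 replicates 1 and 2 and EtOH-160 replicates 2 and 3, at limma adjusted p of 0.0882, 0.112, 0.0657 and 0.0826, and also with median-centred values (0.0571), no filter (0.0686), the replicate block (0.0627) or the values as deposited (0.319).

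The Prlr probe set L48060_s_at had signals of 6452, 3125, 3488 and 6824 in EtOH-160, 5059, 4650.0 and 5628 in EtOH-220, 6679.5, 9787 and 4945 in TEN-160 and 3389.5, 3308 and 3939.5 in TEN-220. Here TEN-220 was the low group: all its arrays lay below all EtOH-220 and TEN-160 arrays. EtOH-160 was split, with replicates 1 and 4 above all EtOH-220 arrays and replicates 2 and 3 below them. It rose by 0.96 in TEN-160 against TEN-220 (SE 0.295, limma adjusted p = 0.0377), and the call ended without any 1 of the 3 TEN-220 arrays or TEN-160 replicate 1 or 2, at limma adjusted p of 0.104, 0.111, 0.0565, 0.0776 and 0.139. It also ended with median-centred values (0.102), no filter (0.0813) or no variance trend (0.0562). In EtOH-220 against TEN-220 the difference was 0.53 (SE 0.295, limma adjusted p = 0.587), the only member comparison at full energy without overlap between groups.

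The remaining Prlr probe sets were not called. M19304_at had signals of 4476, 2255, 3434 and 4549 in EtOH-160, 4682, 3253 and 3495 in EtOH-220, 6597, 5519 and 3198 in TEN-160 and 2680.3, 3505 and 3826 in TEN-220, with overlap between all groups. Its difference in TEN-160 against TEN-220 was 0.57 (95% interval −0.06 to 1.19, limma adjusted p = 0.2). U34897mRNA_at ranged from 74.9 to 161 over the 13 arrays. Its mean was lowest in TEN-220, at 96.7, and its difference in EtOH-220 against TEN-220 was 0.60 (SE 0.262, limma adjusted p = 0.458). The 5 Prlr probe sets had positive differences in TEN-160 against TEN-220, of 0.46 to 1.77, and negative ones in EtOH-160 against TEN-160, of −1.43 to −0.10; with median-centred values the smallest of the negative ones, that of U34897mRNA_at, turned to 0.10, and under quantile normalization to 0.09.

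Jak2, the kinase bound to both receptors, showed no called difference. RefSeq places it on chromosome 1, from 236408905 to 236468769 (GRCr8). Its tested probe set, U13396_g_at, had signals of 129.8, 133, 111 and 125 in EtOH-160, 90.4, 164 and 183 in EtOH-220, 142, 102 and 195 in TEN-160 and 136, 144 and 137 in TEN-220. The EtOH-160 and TEN-220 arrays were tightly grouped, and EtOH-220 and TEN-160 were spread on both sides of them. The difference of TEN-160 from TEN-220 was 0.02 (95% interval −0.59 to 0.64, limma adjusted p = 0.966), and in EtOH-160 against TEN-160 it was −0.18 (95% interval −0.76 to 0.39, limma adjusted p = 0.664); with median-centred values both signs turned, to −0.20 and 0.02. EtOH-160 lay wholly below TEN-220, by 0.16 (limma adjusted p = 0.863), but the difference turned to 0.47 with TEN-220 replicate 1 as deposited. The other Jak2 probe sets, U13396_at and AJ000557cds_s_at, were too dim to be tested. U13396_at passed the background on 4 of 13 arrays and AJ000557cds_s_at on 1.

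Stat5a and Stat5b, the transcription factors that Jak2 phosphorylates, lie next to each other on chromosome 10 (GRCr8, 86285859 to 86310187 and 86205148 to 86276178) and are near-identical paralogs, so a probe set of one may bind RNA of the other. The tested Stat5a probe set, U24175_at, had signals of 86.3, 56.6, 68.4 and 106 in EtOH-160, 19.8, 134 and 185 in EtOH-220, 118, 92.7 and 96.7 in TEN-160 and 154, 142 and 178 in TEN-220. All EtOH-160 and all TEN-160 arrays lay below all TEN-220 arrays, but EtOH-220 replicate 1, at 19.8, was below the background and far from the other 2 arrays of its group, which gave an SD of 1.74 on the log2 scale. The difference of EtOH-160 from TEN-220 was −1.03 (SE 0.559, limma adjusted p = 0.438). Without EtOH-220 replicate 1, which shares only the estimate of spread, it was called (limma adjusted p = 0.0467). The difference of TEN-160 from TEN-220 was −0.63 (SE 0.598, limma adjusted p = 0.497), and 0.01 with TEN-220 replicate 1 as deposited. The geometric mean of EtOH-220 was 78.8, against 157 in TEN-220, but without EtOH-220 replicate 1 the log2 difference between them was 0.0017. The other Stat5a probe set, U25137_at, was not tested and stayed under the background on all 13 arrays, at 11.7 to 39.9.

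Stat5b had 1 probe set, X91988_at, with signals of 312, 235, 132 and 221 in EtOH-160, 235, 153 and 316 in EtOH-220, 201, 187 and 95.8 in TEN-160 and 169.9, 221 and 223 in TEN-220. The 4 groups overlapped. TEN-160 had the lowest mean, 153, with replicate 3 the lowest of the 13 arrays, and its difference from TEN-220 was −0.41 (95% interval −1.17 to 0.35, limma adjusted p = 0.449). The direction was thus opposite to that of both receptors, without passing the test, and it turned to 0.23 with TEN-220 replicate 1 as deposited.

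Socs2, the feedback inhibitor that is itself a STAT5 target, lies on chromosome 7 (GRCr8, 31890564 to 31932092). Its probe set, AF075382_at, was dim, with signals of 65.3, 86, 45.5 and 108 in EtOH-160, 29.6, 56.4 and 59.5 in EtOH-220, 113, 159 and 163 in TEN-160 and 36.5, 29.6 and 43.5 in TEN-220. All TEN-160 arrays lay above all other arrays, and all 3 TEN-220 arrays were below the background, as were 1 EtOH-220 array and 1 EtOH-160 array. The means ran in the order TEN-160 (143), EtOH-160 (72.4), EtOH-220 (46.3) and TEN-220 (36.1); EtOH-160 overlapped EtOH-220, and EtOH-220 overlapped TEN-220. It rose in TEN-160 against TEN-220 by at least 3.06-fold, with the dim arrays set to the background, a bound that was not itself tested. The fitted difference on the signals as measured was 1.99 (SE 0.391, limma adjusted p = 0.0038). The probe set passed the brightness filter only through its TEN-160 values: ranked by the other 10 arrays it would not have been tested. In EtOH-160 against TEN-160 the difference was −0.98 without overlap (SE 0.366, limma adjusted p = 0.0693, and 0.0259 with a floor at the background). In EtOH-160 against TEN-220 the signal was at least 1.56-fold higher, also without overlap. The fitted difference there was 1.00 (SE 0.366, limma adjusted p = 0.208, not called).

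**Figure D2:**
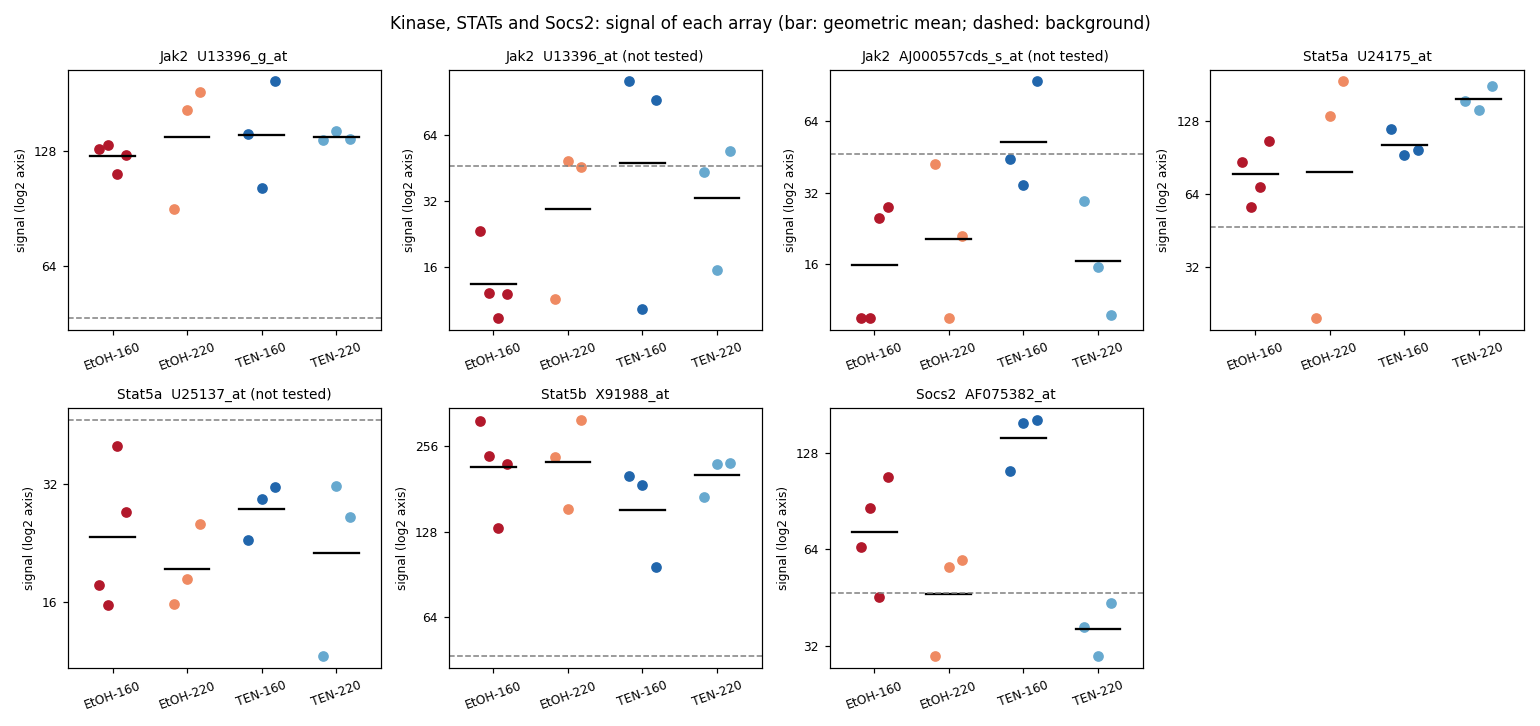
Signal of every array (log2 axis, signals under 9.4 drawn at 9.4) for Jak2, Stat5a, Stat5b and Socs2 in EtOH-160 (n = 4), EtOH-220, TEN-160 and TEN-220 (n = 3 each); points are arrays, bars geometric means and the dashed line the background of 46.6. TEN-160 lies above all other arrays for Socs2, and Stat5a U25137_at is under the background on all 13 arrays.

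TEN-160 against TEN-220 asks what less energy did where no ethanol was given. Of the 12 tested probe sets 5 rose (41.7%) and 0 fell: 1 of 3 for Ghr, 3 of 5 for Prlr and the 1 of Socs2. Of all 5244 probe sets 18.3% were called, with 9.12% higher and 9.15% lower. Probe sets of 1 gene read RNA of that gene on the same arrays and are not separate observations. Whether they read the same transcripts of the gene was not tested. Socs2 was admitted by the filter through its high group; of the other 11, 4 rose (36.4%). The groups did not overlap for 6 of these 11 (54.5%), against 37% of all probe sets, and their median change was 0.57, against 0.07 for all. All TEN-160 arrays lay above all other 10 for 3 of the 11 (27.3%), against 9.23% of all probe sets, and below all of them for 0, against 6.12%. With Socs2 included the counts were 7 of 12 without overlap and 4 of 12 above the rest.

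EtOH-160 against TEN-160 asks what ethanol did at the low energy supply. Here 5 of 12 fell (41.7%), all 3 of Ghr and 2 of Prlr, and 0 rose, while of all probe sets 22.2% were called, with 12.1% lower and 10.1% higher. Without Socs2 the groups did not overlap for 4 of 11 (36.4%), against 31.5% of all, and the median change was −0.55, against −0.07 for all. Both comparisons share the TEN-160 arrays, so the rise in one and the fall in the other are not separate results. Scaling bears on these backgrounds: with median-centred values the median change of all probe sets shifted by 0.20 in EtOH-160 against TEN-160 and by −0.22 in TEN-160 against TEN-220. The calls over all probe sets were then 849 higher and 350 lower in the first, where they had been 530 and 634, and 263 higher and 833 lower in the second, where they had been 478 and 480. Relative to the median of all probe sets, Ghr Z83757mRNA_g_at rose by 2.02 in TEN-160 against TEN-220, Prlr M74152_s_at by 1.36 and Prlr M34083_at by 1.70; centring cannot alter these differences, since it shifts all probe sets of an array alike.

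The comparisons without TEN-160 gave no called member. In EtOH-220 against TEN-220, the effect of ethanol at full energy, 0 of 12 were called, against 0.0191% of all, and limma adjusted p ran from 0.458 to 0.999. In EtOH-160 against EtOH-220, the effect of energy supply under ethanol, 0 of 12 were called, against 0.21% of all (0.153% higher and 0.0572% lower), with changes of −0.66 to 0.64 and limma adjusted p from 0.448. In EtOH-160 against TEN-220 it was 0 of 12, against 2.19% of all, with limma adjusted p from 0.208, that of Socs2. Unadjusted, p was under 0.05 for 1 member in each of these 3 comparisons. With the TEN-160 arrays left out of the fit the count of calls was 0 in each of the 3 as well. The groups did not overlap for 1, 0 and 3 of 12 members in these comparisons, against 16.9%, 10.3% and 16.6% of all. Their few arrays leave wide bounds: for Ghr Z83757mRNA_g_at the 95% interval was −0.30 to 1.10 in EtOH-220 against TEN-220 and −1.32 to −0.01 in EtOH-160 against EtOH-220, and for Prlr M74152_s_at it was −0.68 to 0.59 and −0.56 to 0.63.

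Whether the ethanol effect differed between energy supplies was tested as an interaction, the ethanol effect at 160 kcal minus that at 220 kcal. Ghr Z83757mRNA_g_at was the 1 of 12 called, at −2.75 (SE 0.447, limma adjusted p = 0.00401), where 7.7% of all probe sets were called, 3.7% positive and 4% negative. Its ethanol effect was −2.35 at 160 kcal and 0.40 at 220 kcal. Next were Prlr M74152_s_at at −1.39 and M34083_at at −1.51 (SE 0.405 and 0.492, limma adjusted p = 0.0519 and 0.078), not called. The difference for M74152_s_at was called without TEN-160 replicate 3 or EtOH-160 replicate 1 (limma adjusted p = 0.0409 and 0.0203). It was also called under quantile normalization (0.0416), with the floor at background (0.0463), with array weights (0.0301) and with the replicate block (0.0334). That for M34083_at was called without TEN-220 replicate 3 (0.0194) and with array weights (0.018), and Ghr Z83757mRNA_at, at −0.69 (limma adjusted p = 0.104), with array weights (0.0358). The interaction uses TEN-160 too.

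**Figure D3:**
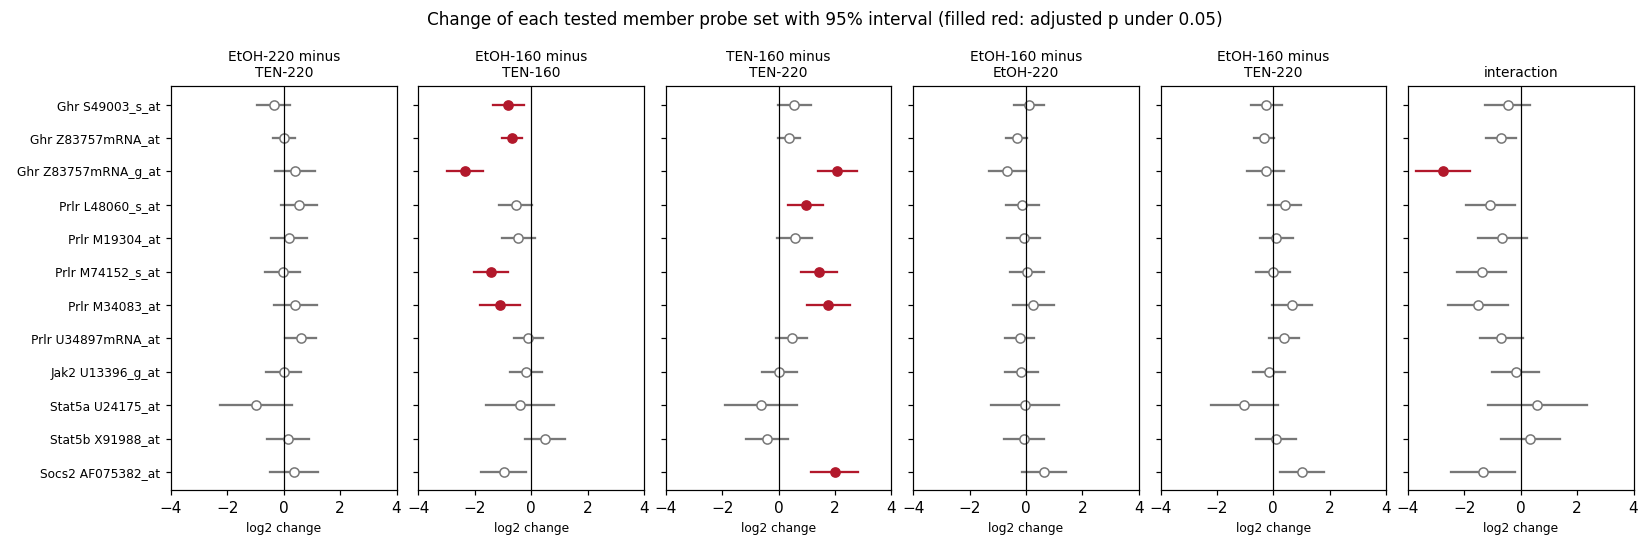
Log2 change (x axis) of the 12 tested member probe sets in 6 comparisons, with 95% intervals from limma; filled red points passed at adjusted p under 0.05. In TEN-160 minus TEN-220 there are 5 calls, all higher, in EtOH-160 minus TEN-160 there are 5, all lower, the interaction has 1, and the 3 comparisons without TEN-160 have 0.

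Markers of other liver cells were read beside these results, since Prlr and Ghr are not made by hepatocytes alone. The 8 hepatocyte markers, all on the array and tested, summed to 123149 to 158337 in EtOH-160, 143782 to 166981 in EtOH-220, 150569.9 to 183641 in TEN-160 and 144872 to 155103 in TEN-220, with overlap. One hepatocyte marker rose in TEN-160 against TEN-220, Ttr, as did Kdr among 4 tested endothelial markers and Epcam among 4 of bile duct cells, and 0 rose or fell among 5 stellate, 3 macrophage, 3 erythroid and 2 lymphocyte markers. The 4 endothelial markers on the array summed to 598 to 932 in TEN-160 and 392 to 528 in TEN-220, without overlap. The 6 of bile duct cells summed to 4941 to 8071 in TEN-160 and 5044 to 5962 in TEN-220, and the 7 of stellate cells to 2125 to 4581 in TEN-160 and 1992 to 2187 in TEN-220. The 4 erythroid markers summed to 9149 to 20032 in TEN-160 and 8983 to 12435 in TEN-220, with overlap, as did the 4 macrophage, 4 lymphocyte and 2 neutrophil markers. EtOH-160 had sums of 498 to 685 for endothelium and 1363 to 2243 for stellate cells. In EtOH-220 the endothelial sums were 684.6 to 773.3, also wholly above TEN-220 and within the range of TEN-160. In EtOH-160 against TEN-160, Ttr and Fgb of the hepatocyte list and Col1a1 and Col1a2 of the stellate list fell, and Cd14 of the macrophage list rose. These genes do not stand for their lists. The median change of the 3 tested macrophage markers was −0.27, opposite to that of Cd14. It was −0.06 for the 8 hepatocyte markers and −0.32 for the 5 stellate markers, against −0.07 for all probe sets. Of all probe sets 18.3% were called in TEN-160 against TEN-220 and 22.2% in EtOH-160 against TEN-160. Counts from lists this short cannot be told apart from those shares. The part of these cells in the receptor differences was not tested.

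A wider list of 45 other genes of the pathway had 34 on the array under a single name, 29 of them tested by their brightest probe set. The list was written with earlier results of these data known. Of these 29, 3 rose in TEN-160 against TEN-220 (10.3%) and 2 fell (6.9%), where 9.12% of all rose and 9.15% fell. EtOH-160 against TEN-160 had 1 that rose (3.45%) and 3 that fell (10.3%), where 10.1% and 12.1% of all did. These shares lie near or below those of all probe sets. In EtOH-160 against TEN-220, 1 rose and 1 fell, where 1.3% and 0.896% of all did, and 0 were called in EtOH-220 against TEN-220 or EtOH-160 against EtOH-220. The interaction called 3 of 29, with 1 higher (3.45%) and 2 lower (6.9%), where 3.7% and 4% of all were.

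Of the hormones themselves, hepatic signal was low. Gh1, growth hormone, ranged from 32.7 to 119.2 over the arrays and was not called, the 3 Prl probe sets passed the background on 1, 0 and 0 arrays, and the placental lactogen Prl3b1 on 7. Among the partners and inhibitors 11 were tested. Ptpn6, a phosphatase that switches off JAK kinases, fell by 0.80 in EtOH-160 against TEN-160 (SE 0.195, limma adjusted p = 0.0106). Ptpn11, a phosphatase recruited to cytokine receptors, rose in TEN-160 against TEN-220 by at least 1.9-fold, with overlap between groups. The limma adjusted p of 0.0499 belongs to its fitted difference on the signals as measured, not to that bound. Of its TEN-220 arrays 2 of 3 were below the background, as were 2 EtOH-160 arrays, at 31.7 and 46.3. Its interaction, fitted at −2.49 (limma adjusted p = 0.0245), thus rests on 2 groups that lie partly below the background. Cish and Socs3, inhibitors of the family of Socs2, and Stat3, a related transcription factor, had differences of 0.12, 0.06 and −0.32 in TEN-160 against TEN-220 and of 0.28, −0.30 and 0.28 in EtOH-160 against TEN-160, none called.

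Of the genes that respond to these hormones in liver 17 were tested. In TEN-160 against TEN-220, 2 rose and 2 fell (11.8% each), near the 9.12% and 9.15% of all probe sets. Igf1, the main growth hormone target, differed by 0.05 in TEN-160 against TEN-220 on its brightest probe set (SE 0.204, limma adjusted p = 0.888). Of its other 4 probe sets 1, D00698_s_at, rose by 1.27 in TEN-160 against TEN-220 and fell by 1.21 in EtOH-160 against TEN-160 (SE 0.316 and 0.295, limma adjusted p = 0.014 and 0.0105), both without overlap, and the other 3 were not called in either; it was chosen after its values were seen. Igfals, the acid-labile subunit of circulating IGF complexes, fell by 1.08 on its brightest probe set in TEN-160 against TEN-220 (SE 0.178, limma adjusted p = 0.00131). The Igfals probe set S46785_at had means of 964 in TEN-160 and 1868 in TEN-220. On rc_AA924289_s_at the gap was smaller, 658 against 844. Igfbp3, the binding protein of the same complexes, fell by 1.40 on its brightest probe set in TEN-160 against TEN-220 and rose by 1.65 in EtOH-160 against TEN-160 (SE 0.19 and 0.177, limma adjusted p = 0.000411 and 9.97e-05), while its other probe set had 0.37 and −0.14, not called. Cyp2c12, the steroid hydroxylase that the female pattern of growth hormone maintains in rats, rose by 0.95 in TEN-160 against TEN-220 and fell by 0.99 in EtOH-160 against TEN-160 (SE 0.15 and 0.14, limma adjusted p = 0.000961 and 0.000439). Its other probe set was called in the same directions, at 1.15 and −1.20. Cyp2c11, the male-specific counterpart, was dim and differed by 0.02 and −0.21 on its brightest probe set, not called. Its probe set M18363cds_s_at had means of 80.3 in TEN-160, 83.3 in TEN-220 and 71.2 in EtOH-160. A further Cyp2c11 probe set, J02657_s_at, was not tested and passed the background on 8 of 13 arrays. Its means were 127 in TEN-160 and 44.2, 58.6 and 55.5 in EtOH-160, EtOH-220 and TEN-220.

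Slc10a1, the bile salt carrier that prolactin induces in rat liver, rose by 1.18 in TEN-160 against TEN-220 and by 0.70 in EtOH-160 against TEN-220 (SE 0.174 and 0.163, limma adjusted p = 0.000694 and 0.0384), and fell by 0.48 in EtOH-160 against TEN-160 (SE 0.163, limma adjusted p = 0.0467). Cyp2c22, a cytochrome P450 of the same subfamily as Cyp2c12, fell by 1.20 in EtOH-160 against TEN-220 (SE 0.246, limma adjusted p = 0.0221). In the interaction the calls were Igfbp3 at 1.70, Cyp2c12 at −1.11 and Ptpn11.

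**Figure D4:**
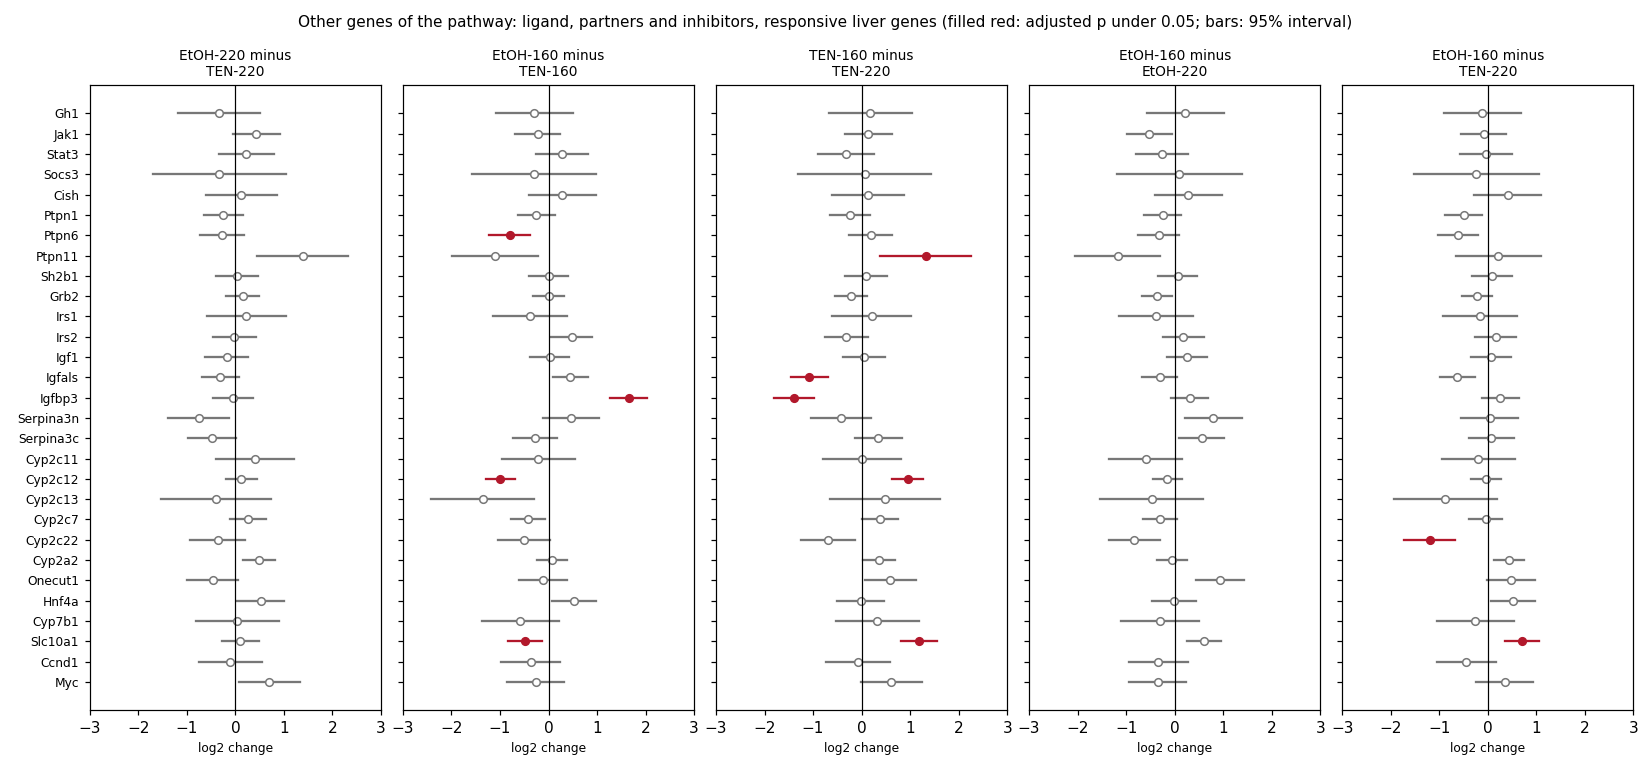
Log2 change (x axis) with 95% limma intervals of the 29 other tested pathway genes in the 5 comparisons of 2 groups, from the hormone at the top through partners and inhibitors to responsive liver genes; filled red points passed at adjusted p under 0.05. TEN-160 minus TEN-220 shows Ptpn11, Cyp2c12 and Slc10a1 higher and Igfals and Igfbp3 lower, and EtOH-160 minus TEN-160 shows Igfbp3 higher and Ptpn6, Cyp2c12 and Slc10a1 lower.

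Likeness of pattern was measured as the root mean square difference of 2 probe sets' log2 signals over the 13 arrays, each centred on its own mean, for the brightest probe set of each member. Nearest to Ghr were Plaa (0.24), Grb2 (0.25) and Amy2a3 (0.26), where the median over all candidates was 0.60. The Grb2 neighbour was D49847_at, a dim probe set with means of 184 in TEN-160 and 122 in TEN-220. The brightest Grb2 probe set, rc_AA801130_at, went the other way, with 1036 and 1207, as did rc_AI170776_s_at, with 291 and 371. Nearest to Prlr were Ssr3 (0.22), Mapk14 (0.24) and Met (0.25), with the same median of 0.60. Nearest to Jak2 were Timp2 (0.14), Pdzd11 (0.16) and Atp6v1f (0.18) (median 0.46), and to Stat5b Cyp2b3 (0.25), Git1 (0.29) and Nfix (0.29) (median 0.60). The nearest to Stat5a and Socs2 were farther away: Arhgap25 (0.38), Calb2 (0.43) and Bcan (0.47) for Stat5a (median 0.89) and Clps (0.39), Gadd45a (0.42) and Apob (0.43) for Socs2 (median 0.88). No other member was among these neighbours.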

How the data were processed

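The deposited intensity values are linear MAS5 signals of 13 arrays, per the submitters' processing notes, which give no version. The 2%-trimmed mean was 501 on 12 arrays and 133 on TEN-220 replicate 1, which was multiplied by 3.76. Signals under the 10th percentile (9.4) were set to it and taken to log2. The fit excluded 59 control probe sets and, of the others, the dimmest 40% by mean signal. limma 3.58.1 in R 4.3.3 fitted 4 group means (lmFit, then eBayes with a trend). Its two-sided tests were adjusted by Benjamini-Hochberg over 5244 probe sets in each comparison and called at 0.05. The median SE in TEN-160 against TEN-220 was 0.26; precision is limited by the number of arrays. The 95th percentile of 19 bacterial and yeast control probe sets served as background, and folds given as "at least" set arrays under it to it. Genes carry the array annotation's names. Every member probe set is named. Other pathway genes are named from a list of 8 and, if called, up to 4 a comparison by smallest p. Members and lists were chosen with earlier results of these data known. The fit was tested on simulated data. Alternatives changed the normalization, floor, filter, variance model, weights, block and arrays. Promoter windows are RefSeq's (GRCr8). Plots used matplotlib 3.10.9.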

Additional observations from a re-analysis of the deposited data

Results flagged for a closer look

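The ethanol effect on the growth hormone receptor probe set Z83757mRNA_g_at differed between the 2 energy supplies, by the interaction term of the fit. It was −2.35 on the log2 scale at 160 kcal (EtOH-160 against TEN-160) and 0.40 at 220 kcal (EtOH-220 against TEN-220), a difference of −2.75 (SE 0.447, limma adjusted p = 0.00401). Leaving out single arrays moved it between −2.97 and −2.34, and it stayed called. The other Ghr probe sets gave −0.69 and −0.46 (limma adjusted p = 0.104 and 0.465), not called, the first of them called with array weights (0.0358). The TEN-160 arrays, which differ from the others in the spiked control too, enter this value, and their part in it was not tested. No member had an EtOH-160 array far enough from the other 3 to stand out at the 95% limit of Dixon's ratio for 4 samples.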

How the results depend on the processing

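The 5 calls of TEN-160 against TEN-220 became 4 to 7 over all alternatives, and Ghr Z83757mRNA_g_at, Prlr M74152_s_at and M34083_at and Socs2 were called in each of them. Socs2 counts less here: it passed the brightness filter only through its TEN-160 values, and all its TEN-220 arrays were below the background. Without Socs2 the calls as reported were 4 of 11. The 5 calls of EtOH-160 against TEN-160 were 2 with median-centred values, 1 with the values as deposited and 3 with no filter, and 2 to 6 without single arrays; Ghr Z83757mRNA_g_at was called in each. The 1 call of the interaction was 2 under quantile normalization, 2 with the floor at background, 4 with array weights and 2 with the replicate block, and 1 to 2 without single arrays. EtOH-160 against TEN-220 gave 0 calls, and 0 to 1 without single arrays; the other 2 comparisons gave 0 throughout. No called member change reversed its sign. Of the changes of single members under alternatives, 1493 kept direction and side of the threshold, 29 lost the call, 16 gained it and 70 changed sign without being called. The calls over all probe sets ranged from 107 to 1283 (1164 as reported) in EtOH-160 against TEN-160, 346 to 1354 (958) in TEN-160 against TEN-220, 0 to 58 (1) in EtOH-220 against TEN-220, 0 to 53 (11) in EtOH-160 against EtOH-220, 50 to 311 (115) in EtOH-160 against TEN-220 and 65 to 579 (404) in the interaction. In the interaction 449 were higher and 109 lower with median-centred values, against 194 and 210. EtOH-160 against EtOH-220 then had 13 higher and 2 lower, against 8 and 3. With the values as deposited, which shifted the median of all probe sets by 0.64, the calls were 57 higher and 1 lower in EtOH-220 against TEN-220, 328 and 18 in TEN-160 against TEN-220, 88 and 2 in EtOH-160 against TEN-220 (68 and 47 with the rescaled array) and 4 and 61 in the interaction. The replicate block had no support as a pairing: deviations of same-numbered arrays correlated at −0.11 to 0.09 over 18 pairs. A fit to the compared groups alone cannot be made for the interaction, and one without TEN-160 cannot be made for comparisons that use it.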
